A study of Mus musculus with 32 samples.

Results

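The interferon regulatory factors (IRFs) are transcription factors that carry type I interferon and Toll-like receptor signals to the genome. The members described here are the 8 genes Irf1, Irf2, Irf3, Irf4, Irf5, Irf7, Irf8 and Irf9, chosen by the gene name that the arrays give to their probes, of 24082 genes with a probe. All 8 were among the 16035 genes with a probe well above background on at least 50% of the arrays. Bone marrow-derived macrophages (BMDMs) of WT C57BL/6 mice and of Ifnar1-/- mice were grown with M-CSF for 6 days and treated on day 7 for 6 h. Ifnar1-/- mice lack a subunit of the receptor through which type I interferons signal. Cells of both genotypes were left untreated, received 1 agent (LPS, IFNβ or zVAD), or received either stimulus together with zVAD (LPS+zVAD, or IFNβ+zVAD) or with zVAD and Nec-1. LPS, a component of bacterial membranes, engages TLR4, while zVAD is an inhibitor of caspases and Nec-1 one of the kinase RipK1. Doses in the labels were 100 ng/mL for LPS and, for IFNβ, 1000 U/mL, and other sources of the study state different ones. Each of the 16 groups had 2 arrays, 32 in all, and this number limits the precision of every value. Nothing states that the paired arrays of a group came from separate mice, so the p-values measure the spread between these samples.

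IRFs share a DNA-binding domain that recognizes GAAA repeats, as found in the interferon-stimulated response element (ISRE). Irf9 is the DNA-binding subunit of ISGF3, which contains Stat2 and forms when the type I interferon receptor is engaged. Irf3 is activated by phosphorylation downstream of TLR4 and drives early Ifnb1, and Irf7, itself an interferon-stimulated gene, amplifies the response. Irf1 is an activator that interferons induce through GAS elements, and Irf2 competes with it for the same sites. Irf5 promotes inflammatory cytokines. Irf4 and Irf8 bind with partners such as Spi1 in myeloid and lymphoid cells, and Irf8 is a lineage factor of macrophages.

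The promoters of 5 members are shown because their genes carried the largest differences between untreated cells of the genotypes (Irf7, Irf9) or held motif matches (Irf1, Irf2, Irf8). Each run is the 250 bases before the first RefSeq start in GRCm38.p6, 5′ to 3′ along the gene, with motif matches in capitals.
Irf1 (chr11:53769764-53770013, plus strand): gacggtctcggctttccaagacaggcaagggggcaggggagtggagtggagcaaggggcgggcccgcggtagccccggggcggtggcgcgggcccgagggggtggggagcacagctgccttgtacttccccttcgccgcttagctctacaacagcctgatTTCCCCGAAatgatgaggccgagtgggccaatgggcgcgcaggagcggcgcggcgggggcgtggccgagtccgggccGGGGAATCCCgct
Irf2 (chr8:46739495-46739744, plus strand): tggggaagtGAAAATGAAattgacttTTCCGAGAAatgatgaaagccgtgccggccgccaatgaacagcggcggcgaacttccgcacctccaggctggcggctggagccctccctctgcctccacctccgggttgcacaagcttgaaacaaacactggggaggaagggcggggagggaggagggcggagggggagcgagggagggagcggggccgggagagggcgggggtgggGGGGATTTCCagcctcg
Irf7 (chr7:141266425-141266674, minus strand): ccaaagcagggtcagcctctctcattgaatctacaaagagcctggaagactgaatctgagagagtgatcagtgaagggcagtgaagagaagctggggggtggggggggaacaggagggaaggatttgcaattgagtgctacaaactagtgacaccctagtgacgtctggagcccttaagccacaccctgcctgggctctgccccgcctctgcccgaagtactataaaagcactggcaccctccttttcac
Irf8 (chr8:120736108-120736357, plus strand): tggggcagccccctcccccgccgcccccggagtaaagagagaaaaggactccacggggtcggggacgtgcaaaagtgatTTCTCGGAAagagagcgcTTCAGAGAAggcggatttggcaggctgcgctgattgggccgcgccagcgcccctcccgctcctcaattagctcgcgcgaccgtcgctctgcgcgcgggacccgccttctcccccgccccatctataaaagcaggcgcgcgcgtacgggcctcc
Irf9 (chr14:55603735-55603984, plus strand): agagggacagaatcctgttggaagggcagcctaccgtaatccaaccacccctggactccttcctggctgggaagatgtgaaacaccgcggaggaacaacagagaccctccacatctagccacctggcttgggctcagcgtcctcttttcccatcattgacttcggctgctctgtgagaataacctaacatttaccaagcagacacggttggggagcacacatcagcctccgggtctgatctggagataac

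The windows of 300 bases, from 250 before to 50 after the start, were searched on both strands for the ISRE core (GAAANNGAA), the GAS element (TTCNNNGAA) and the κB site, a binding site of NF-κB. Among 32841 RefSeq promoter windows outside chromosome 18, 8.56% held the ISRE core, 8.3% the GAS element and 4.51% the κB site. Irf1 held a GAS match from -90 to -82 and a κB match from -13 to -4 relative to the start. Irf2 held an ISRE core from -241 to -233, a GAS match from -224 to -216 and a κB match from -17 to -8. Irf8 held GAS matches from -171 to -163 and from -153 to -145. None of these letters occurred in the windows of Irf3, Irf4, Irf5, Irf7 and Irf9, nor in the windows at the second starts of Irf1, Irf8 and Irf9.

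**Figure D1:**
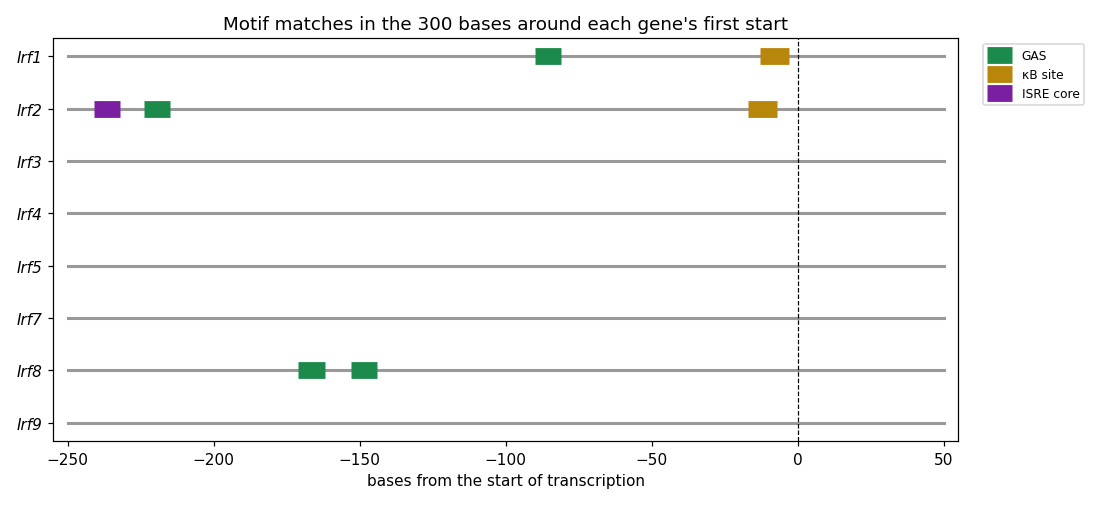
Motif matches in the windows of the 8 members. The x axis is the distance in bases from the first RefSeq start, each grey line is the window of a gene, and blocks mark ISRE core, GAS and κB matches. Irf2 held all 3 motifs, the GAS match of Irf1 began at -90 and 5 windows held no match.

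Ifnar1, the deleted gene, had 3 probes. On the first, the 16 WT arrays lay between 7.88 and 10.23 log2 intensity and the 16 Ifnar1-/- arrays between 5.82 and 7.35. On the second they lay between 9.94 and 11.88 in WT and between 7.29 and 8.73 in Ifnar1-/- BMDMs. On the third the WT arrays reached from 9.02 to 14.76 and overlapped the Ifnar1-/- arrays, at 11.16 to 12.44. Untreated cells had 14.22 and 14.19 on it in WT and 11.89 and 11.87 in Ifnar1-/- BMDMs. Within treatments the genotypes overlapped on it only with LPS+zVAD (12.38 and 11.18 in WT) and IFNβ+zVAD+Nec-1 (9.02 and 12.73 in WT). Where these probes lie relative to the deleted part is not given in the sources used here. The macrophage markers Adgre1 (named Emr1 on the arrays), Csf1r, Cd68, Itgam, Cd14, Lyz2, Mertk, Fcgr1 and Mrc1 were well above background on all 32 arrays. Their summed level, the log2 of summed intensities, ranged from 19.65 to 20.09 in WT and from 19.64 to 20.1 in Ifnar1-/- BMDMs. Such a sum is set mostly by the brightest genes of a list. Markers of other cell types differed within their lists. The T cell marker Cd3g was well above background on 3 arrays, the NK cell marker Ncr1 on 2 and the dendritic cell marker Xcr1 on 2. From the same lists, Cd3e, Cd4, Siglech and Ccr7 were well above background on all 32 arrays and Klrb1c on 17. The B cell markers Cd79a and Cd79b and the neutrophil and progenitor markers Elane, Mpo and Camp were so on all 32. The summed level of the 5 dendritic cell markers was 15.71 to 16.43 in WT and 15.17 to 16.03 in Ifnar1-/- cells, most of it from Siglech (median 15.8). That of the 3 fibroblast markers was 6.39 to 10.39 and 9.43 to 12.56. Within treatments, the summed levels were higher in Ifnar1-/- cells without overlap in 8 of 8 treatments for fibroblast markers, 8 for NK cell markers and 7 for B cell markers, and higher in WT in 7 for dendritic cell markers. In untreated cells the NK cell sum was 4.67 to 5.08 in WT and 6.61 to 6.76 in Ifnar1-/- cells, and the B cell sum 9.89 to 10.33 and 10.35 to 10.5. The T cell sums overlapped in 7 treatments and the neutrophil sums in 7. The macrophage sums were higher in Ifnar1-/- cells without overlap in 3 treatments, higher in WT in 2 and overlapped in 3. The part of these markers in differences between the genotypes was not tested. Between 54.9% and 78% of probes were well above background on the WT arrays (median 62.6%) and between 44.5% and 61.6% on the Ifnar1-/- arrays (median 53.6%). The arrays of Ifnar1-/- BMDMs with LPS+zVAD+Nec-1 stood apart, with a median absolute difference between the paired arrays of 0.51 log2 over all genes and 0.73 over the 8 members. In the other 15 groups it was 0.21 to 0.38 and 0.16 to 0.40.

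**Figure D2:**
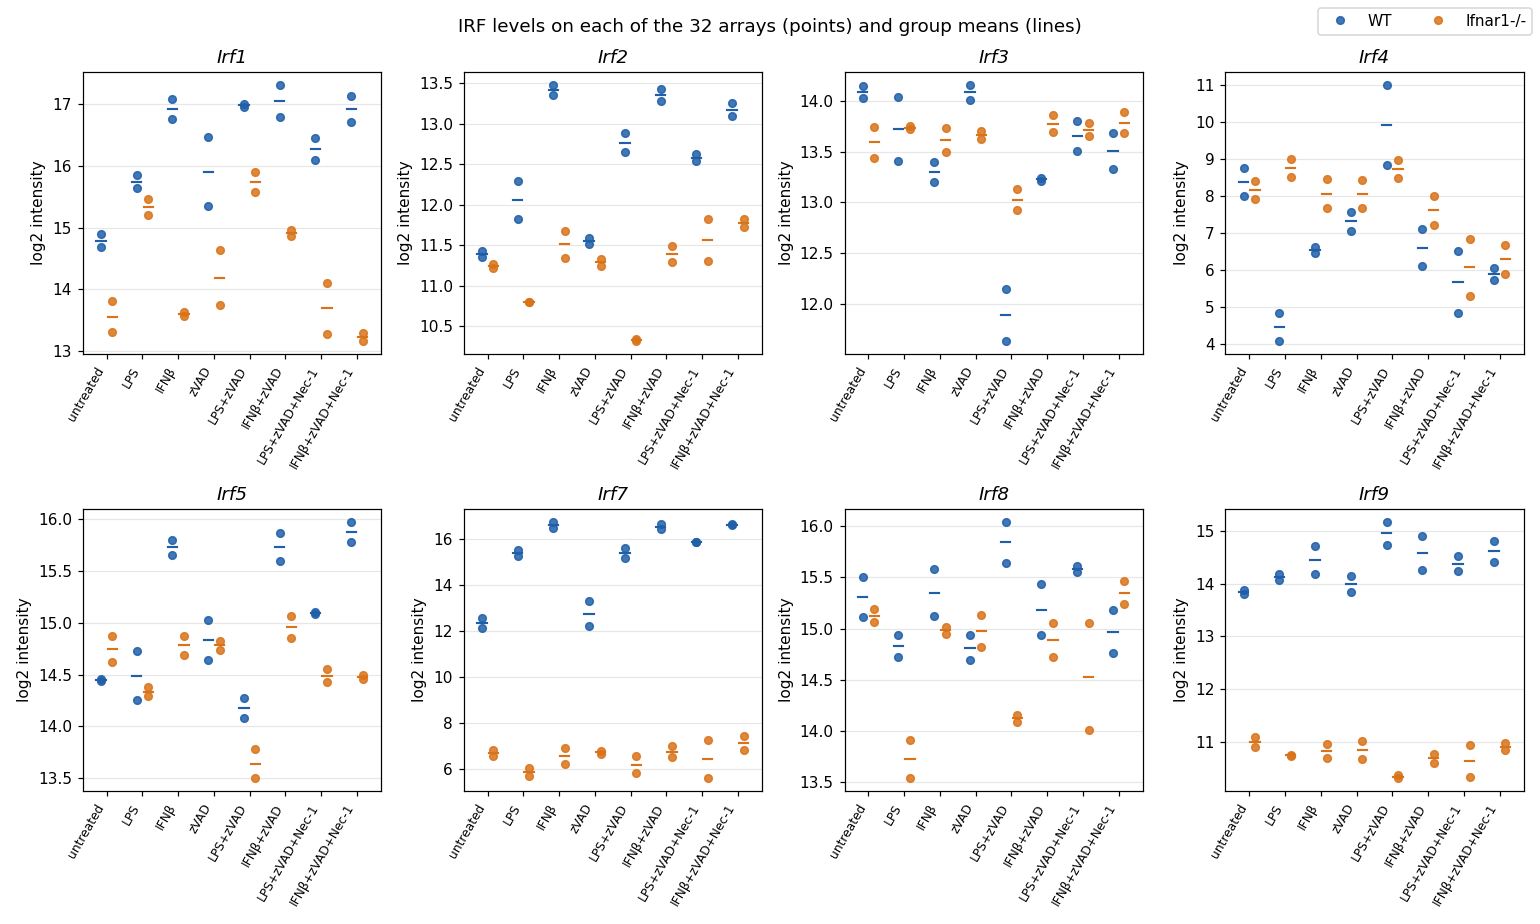
Levels of the 8 members. The y axis is the quantile-normalized log2 intensity, the x axis the 8 treatments, each point 1 array (blue WT, orange Ifnar1-/-) and each short line the mean of 2 arrays. Irf7 and Irf9 show no overlap between the genotypes in any treatment, with Irf7 between 12.14 and 16.75 in WT and between 5.6 and 7.42 in Ifnar1-/- BMDMs.

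Untreated cells of both genotypes were compared to ask which IRFs depend on the receptor before any stimulus. Irf7, Irf9 and Irf1 were lower in untreated Ifnar1-/- BMDMs, 3 of the 8 members, and no member was higher, where 8.72% of all genes were called at an adjusted p under 0.05. The genotypes lay on different slides, scanned on different days, so this difference and a difference between slides or scan days cannot be told apart. Irf7, which is measured by a probe spanning chr7:148450664-148451014 of mm9, had log2 intensities of 12.14 and 12.57 in untreated WT and of 6.55 and 6.83 in untreated Ifnar1-/- BMDMs. It was lower by 50.8-fold, with a log2 fold change of -5.67 (SE 0.42, adjusted p = 5.43e-08). The WT arrays were all higher than the Ifnar1-/- arrays, also across the 16 arrays of each genotype. In the authors' normalized values untreated cells had 12.15 and 12.64 in WT and 7.03 and 7.3 in Ifnar1-/- BMDMs. The difference of Irf7 was smaller there, so its size depended on the processing. Irf9, at chr14:56228806-56228865, had 13.81 and 13.89 in WT and 10.89 and 11.09 in Ifnar1-/- cells. It was lower by 7.27-fold (log2 fold change -2.86, SE 0.25, adjusted p = 4.84e-07). Over all treatments Irf9 lay between 13.81 and 15.18 in WT and between 10.3 and 11.09 in Ifnar1-/- BMDMs, with no overlap.

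Irf1, measured by a probe of its first transcript variant at chr11:53590746-53590805, had 14.69 and 14.89 in untreated WT and 13.3 and 13.81 in untreated Ifnar1-/- cells. It was lower by 2.35-fold (log2 fold change -1.23, SE 0.34, adjusted p = 0.0295). The arrays did not overlap, but the call was lost when any of the 4 arrays was left out, with values from -1.49 to -0.98, and with scaling by the 75th percentile (adjusted p = 0.0539) or no filter on dim probes (0.0507). A second Irf1 probe, of transcript variant 3 at chr11:53591817-53591876, was well above background on 24 arrays and differed by -0.06 (SE 0.84, adjusted p = 0.985). The other members had log2 differences of -0.15 for Irf2, -0.5 for Irf3, -0.21 for Irf4, 0.29 for Irf5 and -0.18 for Irf8, and none was called. The 95% interval reached from -0.94 to -0.06 for Irf3 and from -1.59 to 1.16 for Irf4, whose arrays spread most.

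**Figure D3:**
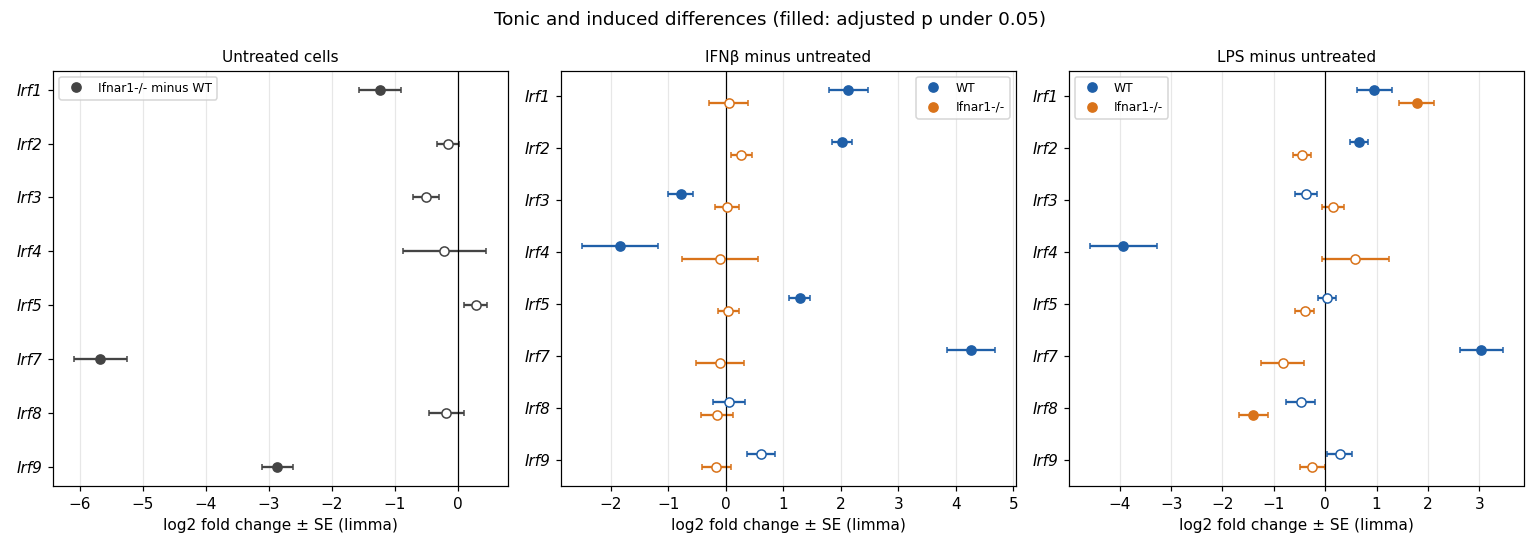
Tonic and induced differences of the 8 members. The x axis is the log2 fold change with its standard error from limma, in untreated cells (Ifnar1-/- minus WT, grey) and with IFNβ or LPS (minus untreated, blue WT, orange Ifnar1-/-), and filled points have an adjusted p under 0.05. Irf7 differed by -5.67 log2 in untreated Ifnar1-/- cells and rose by 4.26 log2 with IFNβ in WT cells, while no Ifnar1-/- value with IFNβ was past 0.27.

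IFNβ raised Irf7, Irf1, Irf2 and Irf5 and lowered Irf3 and Irf4 in WT BMDMs, 6 of the 8 members called, beside 35.3% of all genes. In Ifnar1-/- BMDMs limma called 0 members and 0% of all genes with IFNβ, and 253 genes had an unadjusted p under 0.05. Irf7 went to 16.48 and 16.75 log2 intensity with IFNβ in WT, a mean of 16.62 that it also had with IFNβ+zVAD+Nec-1 and that no other group passed, and rose 19.1-fold (log2 4.26, SE 0.42, adjusted p = 3.69e-07). Without the receptor it had 6.24 and 6.93 with IFNβ, a change of -0.1 (95% interval -0.99 to 0.78). Irf9 had 14.18 and 14.73 with IFNβ in WT, a change of 0.61 (95% interval 0.08 to 1.13, adjusted p = 0.0702). With the replicate number as a block within each genotype this change of Irf9 had an adjusted p of 0.0028, and with scaling by the 75th percentile it was 1.06 (adjusted p = 0.0272). The log2 difference of -2.86 between untreated cells and this change were not tested against each other, and they share the untreated WT arrays.

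Irf1 had 16.76 and 17.08 with IFNβ in WT and rose 4.38-fold (log2 2.13, SE 0.34, adjusted p = 9.17e-05), and in Ifnar1-/- cells it had 13.57 and 13.64. Its second probe also rose in WT, by 2.62 log2 (adjusted p = 0.0197). Irf2, its competitor, at chr8:47932486-47932545, had 11.43 and 11.36 in untreated WT and 13.35 and 13.48 with IFNβ. Irf2 rose 4.06-fold (log2 2.02, SE 0.18, adjusted p = 7.98e-08). Both the activator and its competitor rose in WT cells. Irf2 had 11.22 and 11.27 in untreated and 11.68 and 11.35 in IFNβ-treated Ifnar1-/- cells.

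Irf5, at chr6:29486901-29486960, went from 14.46 and 14.44 to 15.65 and 15.8 in WT and rose 2.42-fold (log2 1.28, SE 0.18, adjusted p = 2.22e-05). Irf3, at chr7:52257700-52257759, went from 14.03 and 14.15 to 13.2 and 13.4 and fell by 0.79 log2 (SE 0.21, adjusted p = 0.00627), a call that was lost without untreated replicate 2 or IFNβ replicate 1 (values from -0.89 to -0.69). When arrays were scaled by their 75th percentile the change of Irf3 was -0.4 (adjusted p = 0.364), while that scaling moved the median of all genes from -0.17 to -0.02. Irf4, at chr13:30858532-30858591, went from 7.99 and 8.76 to 6.6 and 6.45 and fell by 1.85 log2 (SE 0.66, adjusted p = 0.0353). That call of Irf4 was lost when any of the 4 arrays was left out, with values from -2.23 to -1.46, and with no filter on dim probes (adjusted p = 0.0546). Irf8, at chr8:123280324-123280383, had 15.11 and 15.5 untreated and 15.58 and 15.12 with IFNβ in WT, with overlapping arrays and a change of 0.05 (95% interval -0.54 to 0.63).

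The test of the difference between the genotypes' responses to IFNβ called Irf7, Irf1, Irf2 and Irf5, 4 of the 8 members, all with the smaller rise in Ifnar1-/- cells, beside 18.8% of all genes. The Ifnar1-/- response minus the WT response was -4.36 for Irf7, -2.08 for Irf1, -1.75 for Irf2 and -1.24 for Irf5. With the mean of its probes Irf1 was at -2.22 and not called (adjusted p = 0.0635). With the replicate block, Irf3 (0.81, adjusted p = 0.0214), Irf4 (1.75, adjusted p = 0.0208) and Irf9 (-0.78, adjusted p = 0.00933) were called as well.

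IFNβ+zVAD in WT raised Irf1, Irf2, Irf5, Irf7 and Irf9 and lowered Irf3 and Irf4, 7 members beside 37.5% of all genes, and these changes share their untreated arrays with those of IFNβ. The fall of Irf3 (-0.87) was -0.48 and not called (adjusted p = 0.238) with scaling by the 75th percentile. Irf9 had 14.27 and 14.91 with IFNβ+zVAD and rose by 0.74 log2 (SE 0.25, adjusted p = 0.0268), and the call was lost without either untreated array or without IFNβ+zVAD replicate 2, with values from 0.42 to 1.06, and in the authors' normalized values (adjusted p = 0.0637). The fall of Irf4 (-1.78, adjusted p = 0.0397) was lost without either untreated array or without IFNβ+zVAD replicate 1, with values from -2.27 to -1.29, and with no filter on dim probes (adjusted p = 0.0605). Set directly against IFNβ alone, IFNβ+zVAD had 0 members called by limma and 0% of all genes in WT, and 637 genes had an unadjusted p under 0.05. No member (0) was called in Ifnar1-/- cells for IFNβ+zVAD against untreated or against IFNβ, beside 0.00624% of all genes in each, with 585 and 370 genes at an unadjusted p under 0.05. Irf1 had 14.86 and 14.96 in Ifnar1-/- cells with IFNβ+zVAD and 13.57 and 13.64 with IFNβ, a difference of 1.3 that was not called. The responses to IFNβ+zVAD differed between the genotypes for Irf2 (-1.81), Irf3 (1.05), Irf5 (-1.06), Irf7 (-4.12) and Irf9 (-1.04), beside 19.3% of all genes. The call of Irf9 held in 1 of the 8 fits that left out an array (values from -1.36 to -0.72) and was lost with the normexp correction (adjusted p = 0.0517), both other filters and the authors' normalized values, and that of Irf3 was lost without WT untreated replicate 2, Ifnar1-/- untreated replicate 1 or Ifnar1-/- IFNβ+zVAD replicate 2 (0.9 to 1.21). With scaling by the 75th percentile the difference of Irf3 was 0.63 and not called (adjusted p = 0.366), and that of Irf1 went from -0.91, not called, to -1.67 (adjusted p = 0.0319).

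zVAD alone called 0 members in either genotype, with 0.00624% of all genes called in WT and 0% in Ifnar1-/- cells. At an unadjusted p under 0.05 there were 901 and 61 genes. The difference between these responses called 0 members and 0% of all genes, with 163 genes at an unadjusted p under 0.05. Irf1 had 15.35 and 16.47 with zVAD in WT, both higher than the untreated arrays, and a change of 1.12 (95% interval 0.4 to 1.84, adjusted p = 0.546).

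LPS raised Irf7, Irf1 and Irf2 and lowered Irf4 in WT BMDMs, 4 of the 8 members, beside 41.2% of all genes. In Ifnar1-/- BMDMs it raised Irf1 and lowered Irf8, beside 24.8% of all genes. Irf7 had 15.51 and 15.28 with LPS in WT and rose 8.22-fold (log2 3.04, SE 0.42, adjusted p = 1.72e-05). Irf7 had 5.7 and 6.03 with LPS in Ifnar1-/- cells, both lower than the untreated arrays, and a change of -0.83 (SE 0.42, adjusted p = 0.178). With the replicate block that change of Irf7 had an adjusted p of 0.0359. The difference between the responses of Irf7 was -3.87 (adjusted p = 0.000594).

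Irf1 rose with LPS in both genotypes. It had 15.21 and 15.46 in Ifnar1-/- cells and rose 3.44-fold (log2 1.78, SE 0.34, adjusted p = 0.000989), and in WT it had 15.85 and 15.64 and rose 1.95-fold (log2 0.96, adjusted p = 0.0312). The WT call of Irf1 was lost when any of the 4 arrays was left out, with values from 0.85 to 1.07, and with no filter on dim probes (adjusted p = 0.0506). The difference between the responses of Irf1 was 0.82 and was not called (95% interval -0.2 to 1.84). On its dim second probe Irf1 rose by 2.28 in WT (adjusted p = 0.0352) and by 2.22, not called, in Ifnar1-/- cells (adjusted p = 0.0606). The responses on that probe differed by -0.06. Irf2 had 12.29 and 11.83 with LPS in WT and rose by 0.66 log2 (adjusted p = 0.0053), and without the higher array (replicate 1) the change was 0.43 and not called. Its level in Ifnar1-/- cells was 10.8 on both arrays, a change of -0.45 (adjusted p = 0.0748, and 0.0481 with the replicate block). The responses of Irf2 differed by -1.11 (SE 0.25, adjusted p = 0.0101), and by -0.88, not called, without WT LPS replicate 1, and the call was lost in the authors' normalized values (adjusted p = 0.0642). LPS in Ifnar1-/- cells thus raised the activator Irf1 on its brighter probe, and no rise was called for its competitor Irf2.

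The lineage factors gave a different picture with LPS. Irf4 fell from 7.99 and 8.76 to 4.07 and 4.82 in WT, a 15.2-fold fall (log2 fold change -3.93, SE 0.66, adjusted p = 0.000107). The Ifnar1-/- arrays had 7.91 and 8.41 untreated and 8.5 and 9 with LPS, a change of 0.59 (95% interval -0.79 to 1.97). The responses of Irf4 differed by 4.52 (SE 0.93, adjusted p = 0.00547). The size of these Irf4 values depended on the background correction, and with the normexp correction the WT fall was -2.06 and the difference between the responses 2.51. Irf8 had 14.94 and 14.72 with LPS in WT, a change of -0.48 that was not called and was 0.15 with scaling by the 75th percentile, and 13.91 and 13.54 in Ifnar1-/- cells. There it fell by 1.4 log2 (SE 0.28, adjusted p = 0.00133). The difference between the responses of Irf8, -0.93, was not called. In all, Irf2, Irf4 and Irf7 differed in their response to LPS, 3 of the 8 members beside 6.64% of all genes.

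Irf3 and Irf5, which kinases activate, and Irf9 were not called with LPS in either genotype with quantile normalization. Irf3 had 13.41 and 14.04 in WT and 13.72 and 13.75 in Ifnar1-/- cells, with changes of -0.37 and 0.15. The WT change was 0.16 when arrays were scaled by their 75th percentile. Irf5 had 14.73 and 14.25 in WT and 14.29 and 14.38 in Ifnar1-/- cells, with changes of 0.04 and -0.4. With scaling by the 75th percentile the WT change of Irf5 was 0.64 and called (adjusted p = 0.0378). The 95% intervals were -0.81 to 0.07 for Irf3 and -0.34 to 0.42 for Irf5 in WT. Irf9 had 14.07 and 14.19 in WT and 10.73 and 10.74 in Ifnar1-/- cells, with changes of 0.28 and -0.25.

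With LPS+zVAD, Irf1, Irf2, Irf7 and Irf9 rose and Irf3 fell in WT relative to untreated cells, 5 members beside 50.9% of all genes. Irf8 in WT changed by 0.53, not called, and by 1.45 (adjusted p = 0.000915) with scaling by the 75th percentile, which moved the median of all genes from -0.15 to 0.12. In Ifnar1-/- cells Irf1 rose and Irf2, Irf5 and Irf8 fell, beside 28.2% of all genes. The fall of Irf8 there, by 1 log2 (adjusted p = 0.0118), was lost without untreated replicate 1 or LPS+zVAD replicate 1 (values from -1.07 to -0.94) and with scaling by the 75th percentile (-0.68, adjusted p = 0.138). Irf3 had 12.14 and 11.63 in WT, the lowest group for this gene and without overlap with any other, and was 4.61-fold lower than in untreated cells (log2 fold change -2.2, SE 0.21, adjusted p = 9.3e-08). Irf9 had 14.75 and 15.18 in WT, its highest group, and rose by 1.11 log2 (adjusted p = 0.00106). Irf9 had 10.3 and 10.36 in Ifnar1-/- cells, its lowest group, with a change of -0.65 (adjusted p = 0.0596, and 0.002 with the replicate block). Irf2 had 12.65 and 12.88 in WT and 10.32 and 10.34 in Ifnar1-/- cells, and its changes of 1.37 and -0.92 log2 were both called. Irf4 had 8.82 and 11 in WT, a change of 1.54 (adjusted p = 0.0589, and 0.00225 with the replicate block), and Irf3 in Ifnar1-/- cells changed by -0.56 (adjusted p = 0.0513, and 0.0186 with the replicate block).

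The responses to LPS+zVAD differed between the genotypes for 6 of the 8 members, beside 16.1% of all genes. The Ifnar1-/- response minus the WT response was -3.54 for Irf7, -2.28 for Irf2, -1.77 for Irf9, -1.54 for Irf8, -0.83 for Irf5 and 1.64 for Irf3. The call of Irf5 held in 3 of the 8 fits that left out an array (values from -0.97 to -0.69) and was lost with the normexp correction (adjusted p = 0.0643) or no filter on dim probes (0.0624). That of Irf8 was lost without untreated replicate 1 of either genotype or WT LPS+zVAD replicate 2 (-1.74 to -1.33). Irf1 was not among them, with a difference of -0.01 and a 2.19 log2 rise in WT beside 2.18 in Ifnar1-/- cells. Irf1 had 16.96 and 17.01 with LPS+zVAD in WT and 15.58 and 15.9 in Ifnar1-/- cells.

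With caspases inhibited, TLR4 signals can lead to necroptosis, and LPS+zVAD was compared directly with LPS alone to ask what zVAD adds. In WT it raised Irf4, Irf1, Irf8, Irf9 and Irf2 and lowered Irf3, 6 members beside 34.6% of all genes. In Ifnar1-/- cells Irf3 and Irf5 fell, beside 8.25% of all genes. Irf4 went from 4.07 and 4.82 with LPS to 8.82 and 11 with LPS+zVAD in WT and rose 44.1-fold (log2 5.46, SE 0.66, adjusted p = 4.97e-06). The LPS+zVAD arrays of Irf4 differed most within a pair, and the change was 6.55 without replicate 1 and 4.37 without replicate 2 of that group. With the normexp correction it was 3.42. Irf4 had 8.48 and 8.96 with LPS+zVAD in Ifnar1-/- cells, overlapping the LPS arrays, and a change of -0.03 (95% interval -1.41 to 1.35).

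Irf3 fell by 1.84 log2 in WT (SE 0.21, adjusted p = 2.92e-06) and by 0.71 in Ifnar1-/- cells (adjusted p = 0.0421) when zVAD was added to LPS. The call in Ifnar1-/- cells was lost when any of its 4 arrays was left out, with values from -0.82 to -0.6, and with scaling by the 75th percentile (adjusted p = 0.166) or either other filter. Irf5 fell by 0.7 there (adjusted p = 0.0209). Its call was lost without either LPS array or without LPS+zVAD replicate 1 (values from -0.84 to -0.55). Scaling by the 75th percentile (adjusted p = 0.0711) and a fit of only the compared arrays (0.0677) also ended it. In the authors' normalized values, which lacked Irf5 on LPS replicate 1 of Ifnar1-/- cells, the change was -0.67. Those values also lacked Irf5 on both WT arrays with LPS, IFNβ, zVAD, LPS+zVAD and IFNβ+zVAD. The WT changes of Irf5 with these treatments could not be checked in them. In WT, Irf1 rose by 1.23, Irf8 by 1.01, Irf9 by 0.83 and Irf2 by 0.7 log2. Each of these calls was lost without LPS+zVAD replicate 2, and those of Irf1, Irf2 and Irf8 also without LPS replicate 2 and that of Irf9 without LPS replicate 1. Over the arrays left out, Irf1 ranged from 1.13 to 1.34, Irf8 from 0.81 to 1.21, Irf9 from 0.62 to 1.05 and Irf2 from 0.47 to 0.94. Irf7 stood at 15.51 and 15.28 with LPS and at 15.2 and 15.6 with LPS+zVAD, with overlapping arrays. The change with zVAD differed between the genotypes for Irf4 (-5.49, SE 0.93, adjusted p = 0.00321), Irf2 (-1.17, adjusted p = 0.0146) and Irf3 (1.13, adjusted p = 0.0397), beside 3.6% of all genes. The call of Irf4 held whichever of the 8 arrays was left out, that of Irf2 held in 4 of these fits (values from -1.41 to -0.94) and that of Irf3 in 2 (0.81 to 1.44). With only the compared arrays in the fit none was called (adjusted p = 0.109 for Irf4, 0.193 for Irf2 and 0.275 for Irf3). With scaling by the 75th percentile Irf2 and Irf3 had adjusted p-values of 0.0666 and 0.0777, and in the authors' normalized values of 0.0737 and 0.0925. That of Irf3 was also lost with the normexp correction (adjusted p = 0.0554) and both other filters. The difference of Irf4 was -3.34 with the normexp correction (adjusted p = 0.00679). Irf9 joined them with the replicate block (-1.24, adjusted p = 0.00129), against an adjusted p of 0.0596 without it.

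**Figure D4:**
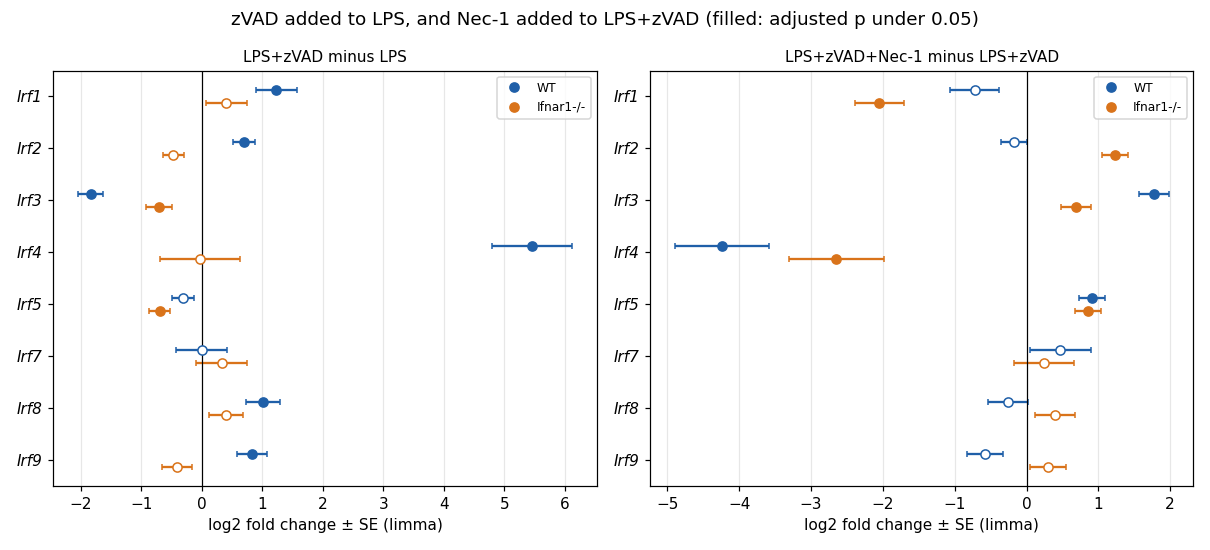
Changes of the 8 members when zVAD was added to LPS (left) and when Nec-1 was added to LPS+zVAD (right). The x axis is the log2 fold change with its standard error from limma, blue is WT, orange is Ifnar1-/-, and filled points have an adjusted p under 0.05. Irf4 in WT rose by 5.46 with zVAD and fell by 4.24 with Nec-1 (3.42 and -3 with the normexp correction), and Irf3 fell by 1.84 and rose by 1.77.

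Nec-1, an inhibitor of necroptosis, was added to LPS+zVAD to ask which of the changes it turns back. In WT it lowered Irf4 and raised Irf3 and Irf5, beside 28.5% of all genes. Irf4 had 4.83 and 6.51 with LPS+zVAD+Nec-1, well above background on 1 of the 2 arrays, and fell by 4.24 log2 (SE 0.66, adjusted p = 9.92e-05). With the normexp correction this change of Irf4 was -3 (adjusted p = 6.86e-05). Irf3 had 13.51 and 13.8 and rose by 1.77 log2 (SE 0.21, adjusted p = 7.61e-06). Irf5 went from 14.27 and 14.08 to 15.08 and 15.1 and rose by 0.91 log2 (adjusted p = 0.000815). The arrays with and without Nec-1 did not overlap for these 3 members. Irf1 changed by -0.72, not called, and was called with scaling by the 75th percentile (-1.19, adjusted p = 0.0206), with the mean of its probes (-1.61, adjusted p = 0.0413) and on its second probe (-2.5, adjusted p = 0.0308). Irf9 changed by -0.58 (adjusted p = 0.0976, and 0.00468 with the replicate block). The comparisons with zVAD and with Nec-1 share the LPS+zVAD arrays, and their opposite signs are therefore not independent.

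Nec-1 on LPS+zVAD in Ifnar1-/- cells lowered Irf1 and Irf4 and raised Irf2, Irf3 and Irf5, beside 18.8% of all genes. This comparison rests on the pair of arrays that stood apart. Irf1 had 14.11 and 13.27 with Nec-1 and fell by 2.05 log2 (adjusted p = 0.000643), with values of -2.47 without replicate 1 and -1.63 without replicate 2 of that group. Irf2 had 11.31 and 11.82 and rose by 1.23 log2 (adjusted p = 0.000175), and by 1.49 and 0.98 without those arrays. Irf4 had 5.29 and 6.84 and fell by 2.65 log2 (adjusted p = 0.00938), with a value of -1.88 without replicate 1, which ended the call, as did leaving out LPS+zVAD replicate 2, and of -3.43 without replicate 2 of the Nec-1 group. With the normexp correction it was -1.64 (adjusted p = 0.0156). Irf3 and Irf5 rose by 0.69 and 0.85 log2, and the call of Irf3 was lost without Nec-1 replicate 2 or either LPS+zVAD array (values from 0.58 to 0.8). The call of Irf5 was lost without LPS+zVAD replicate 1 (0.71 to 0.99). With scaling by the 75th percentile neither was called, at 0.37 for Irf3 (adjusted p = 0.447) and 0.47 for Irf5 (adjusted p = 0.191). The change with Nec-1 differed between the genotypes for Irf2 (1.42, adjusted p = 0.00214) and Irf3 (-1.08, adjusted p = 0.0266), beside 9.93% of all genes. The call of Irf3 was lost without replicate 2 of any of the 4 groups (values from -1.34 to -0.83) and in the authors' normalized values (-0.89, adjusted p = 0.103). Neither difference was called with only the compared arrays in the fit (adjusted p = 0.249 for Irf2 and 0.315 for Irf3). With the replicate block Irf1 (-1.33, adjusted p = 0.037), Irf4 (1.59, adjusted p = 0.0439) and Irf9 (0.88, adjusted p = 0.00713) were called too.

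Nec-1 on IFNβ+zVAD called 0 members and 0% of all genes in WT, where 613 genes had an unadjusted p under 0.05. In Ifnar1-/- cells it lowered Irf1, from 14.86 and 14.96 to 13.16 and 13.29 (log2 fold change -1.69, SE 0.34, adjusted p = 0.0135), beside 1.58% of all genes. The Irf1 arrays did not overlap, and the call was lost when any of the 4 arrays was left out, with values from -1.75 to -1.62, and with the mean of its probes (-1.93, adjusted p = 0.128).

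The order of the 16 groups differed by member, and most neighbours in that order overlapped. Irf7 fell into WT groups with IFNβ (means of 16.55 to 16.62), then WT groups with LPS (15.39 to 15.86), then untreated and zVAD-treated WT cells (12.36 and 12.76), then all Ifnar1-/- groups (5.86 to 7.12), and 4 of its 15 neighbouring pairs did not overlap. Irf9 had 2 such gaps, and the wider lay between untreated WT cells at 13.85 and untreated Ifnar1-/- cells at 10.99. Irf2 had the most gaps, 7 of 15, with WT and IFNβ at the top (13.41) and Ifnar1-/- with LPS+zVAD at the bottom (10.33). Irf1 and Irf5 had 5 gaps each, with IFNβ+zVAD (17.06) and IFNβ+zVAD+Nec-1 (15.88) in WT at the top. Irf3 and Irf8 had 3 each. Irf4 had 1 gap, between WT cells with LPS (4.07 and 4.82) and WT cells with LPS+zVAD+Nec-1 (4.83 and 6.51). The array at 4.83 was not well above background and lay next to the one at 4.82, so these groups were not clearly apart. The other neighbours of Irf4 overlapped.

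Across the 16 group means, as a description over groups that share arrays of 4 slides, the genes most like Irf7 were Adar (r = 0.996), Pydc4 (0.996) and Tnfsf10 (0.995), and those most like Irf9 were Oas2 (0.997), Gm8995 (0.995) and Oas1f (0.995). Irf7 and Irf9 were themselves alike, with r = 0.98. Irf3 was most like Acbd4 (0.985), Zfp329 (0.98) and Zfp426 (0.977), and Irf2 most like Aftph (0.975), Dusp28 (0.97) and Adck1 (0.967). Irf1 was most like 6720475J19Rik (0.967), 9930105H17Rik (0.962) and Gm5595 (0.961), and Irf5 most like A530064D06Rik (0.963), Mppe1 (0.953) and B430306N03Rik (0.934). The patterns of Irf4 and Irf8 were shared less closely, with Rnu12 (0.846) and Cd24a (0.842) among the closest for Irf4 and Olfr586 (0.866), Camk1g (0.862) and A930037O16Rik (0.855) for Irf8.

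Of 14 adaptors and kinases, 7 rose and 3 fell with LPS in WT, beside 41.2% of all genes called (median log2 fold change 0.8, beside -0.08 for all genes), and 6 rose and 1 fell in Ifnar1-/- cells, beside 24.8% (0.57 beside -0.06). Irak4, Traf3, Traf6 and Chuk were called in neither genotype. Ikbke, a kinase of Irf3 and Irf7, rose by 2.13 in WT and 2.44 in Ifnar1-/- cells, and Myd88, the adaptor that leads to Irf5, by 2.12 and 1.66. With IFNβ 5 rose and 3 fell in WT, beside 35.3% of all genes, and 0 were called in Ifnar1-/- cells, beside 0% of all genes. Between untreated cells of the genotypes 0 were called, beside 8.72% of all genes. The median difference of the adaptors and kinases in untreated cells was -0.16.

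Of 15 partners and cofactors, 3 were lower and 3 higher in untreated Ifnar1-/- cells (median -0.03 beside 0), where 8.72% of all genes were called. Stat2, the ISGF3 partner of Irf9, was lower (-2.28 log2) and rose by 2.99 with IFNβ in WT. Batf2, a partner of Irf1, was lower (-1.41) and rose by 4.66 with IFNβ and 3.73 with LPS in WT, against 1.3 with LPS in Ifnar1-/- cells, and its responses to LPS differed by -2.43. Spi1, the partner of Irf4 and Irf8, rose with LPS by 1.37 in WT and 1.05 in Ifnar1-/- cells. In all, 5 of the 15 partners rose with IFNβ in WT, a share close to the 35.3% of all genes. In Ifnar1-/- cells 0 were called, beside 0% of all genes.

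Of 22 textbook target genes of IRFs, 19 were tested. In untreated Ifnar1-/- cells 11 were lower and none higher (median -2.23 beside 0), beside 8.72% of all genes called, among them Oas1a (-9.84), Ifit1 (-9.29), Ifit3 (-8.51) and Mx1 (-8.39). With IFNβ 15 rose in WT, beside 35.3% of all genes (median 3.62 beside -0.17), and 0 were called in Ifnar1-/- cells, beside 0% of all genes. With LPS 15 rose and 1 fell in WT, beside 41.2% of all genes (median 3.56), and 11 rose and 2 fell in Ifnar1-/- cells, beside 24.8% (median 1.83 beside -0.06). In Ifnar1-/- cells, where Irf7 stayed low, LPS raised Ifnb1 by 8.77, Ifit1 by 8.76, Cxcl10 by 7.53 and Ccl5 by 7 log2, while Ifit2 (-1.4) and Ifit3 (-1.31) fell. The responses to LPS were called lower in Ifnar1-/- cells for 6 targets, among them Ifit2 (-5.54), Nos2 (-4.74) and Rsad2 (-4.47), and higher for 1, Isg15 (3.79), beside 6.64% of all genes. These are changes from untreated levels that themselves differed, Ifnar1-/- minus WT, by -9.29 for Ifit1, -7.52 for Cxcl10 and -4.61 for Isg15. For Ccl5 (-2.99) and Ifnb1 (-2) that difference was not called. Levels of the targets with LPS were not tested between the genotypes.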

How the data were processed

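RNA of BMDMs was measured on 32 one-colour Agilent mouse arrays, 2 for each of 16 genotype-by-treatment groups. The deposited intensity values are gProcessedSignal of Feature Extraction 11.5.1.1, per the file headers, which name the build mm9, already corrected for background but not normalized between arrays. A deposited table of the authors' normalized log2 values served as an alternative. Of 55681 probes, 33140 carried a gene symbol. Control spots and outlier spots (130 to 499 per array) were left out, log2 values were quantile-normalized, probes well above background on at least 50% of arrays were kept (21462), and the brightest probe of each gene was used. limma 3.58.1 in R 4.3.3 fitted 16 group means with 16 residual degrees of freedom, with Benjamini-Hochberg adjustment over 16035 genes in each of 26 comparisons and a threshold of 0.05. All arrays had a matched sample. The fit was tested on simulated data.

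Each of the 4 slides held the 8 treatments of 1 genotype and 1 replicate number. Differences between paired arrays correlated between groups in 28 of 28 pairs of WT groups (0.32 to 0.67) and 28 of 28 pairs of Ifnar1-/- groups (0.17 to 0.57). Replicate numbers therefore pair samples within a genotype, and the slide and other factors that share the replicate number cannot be told apart. Between a WT and an Ifnar1-/- group, which share no slide, correlations were 0 to 0.33 (median 0.16) and over 0.1 in 56 of 64 pairs. The WT slides were scanned on separate days and both Ifnar1-/- slides together on another day. Genotype and scan day therefore cannot be told apart. The named genes are the members, Ifnar1, cell type markers and 3 lists (adaptors and kinases, partners, targets). Members and lists were chosen with earlier results of these data known, and the genotype differences for zVAD on LPS and Nec-1 on LPS+zVAD were added after values were seen. Alternatives changed the scaling, background correction, filter, arrays fitted, blocking, variance model, probe choice and source of values, and left out each array in turn. Promoter windows came from RefSeq (GRCm38.p6). Protein sequences were not used here. Some list members and similar genes are not reported here.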

Additional observations from a re-analysis of the deposited data

Results flagged for a closer look

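The values below are members whose change differed between the genotypes in limma's test of the difference, each as the Ifnar1-/- log2 change minus the WT log2 change. With IFNβ against untreated cells the difference was -2.08 for Irf1, -1.75 for Irf2, -1.24 for Irf5 and -4.36 for Irf7. With LPS it was -1.11 for Irf2, 4.52 for Irf4 (2.51 with the normexp correction) and -3.87 for Irf7.

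With LPS+zVAD the difference was -2.28 for Irf2, 1.64 for Irf3, -0.83 for Irf5, -3.54 for Irf7, -1.54 for Irf8 and -1.77 for Irf9. With IFNβ+zVAD it was -1.81 for Irf2, 1.05 for Irf3, -1.06 for Irf5, -4.12 for Irf7 and -1.04 for Irf9. These comparisons share the untreated arrays.

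For zVAD added to LPS the difference was -1.17 for Irf2, 1.13 for Irf3 and -5.49 for Irf4, which was -3.34 with the normexp correction. For Nec-1 added to LPS+zVAD it was 1.42 for Irf2 and -1.08 for Irf3, and these rest on the Ifnar1-/- arrays that stood apart.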

How the results depend on the processing

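The count of members called stayed within 1.5 times of the reported one in most settings, with 2 arrays a group as the main limit. Over treatments against untreated cells in Ifnar1-/- BMDMs it was 6 and became 10 with the replicate block and 10 with the slide as a random block. With only the arrays compared in the fit, which leaves fewer residual degrees of freedom, it went from 8 to 2 for zVAD added and from 9 to 0 for Nec-1 added. Leaving out each array in turn gave 17 to 23 calls for treatments in WT (22 reported), 5 to 6 in Ifnar1-/- cells, 2 for untreated cells (3 reported), 15 to 18 for differences between the genotypes (18 reported), 4 to 8 for zVAD added and 7 to 9 for Nec-1 added. The replicate block changed no call beyond those given above, all of them gained, and cannot be fitted between the genotypes' untreated cells, which share no slide. The tonic call of Irf1 had an adjusted p of 0.0536 with the slide as a random block.

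Sign changes met only values that were not called. With scaling by the 75th percentile Irf3 and Irf8 with LPS in WT were at 0.16 and 0.15. Irf3 with IFNβ in Ifnar1-/- cells was at -0.1 with normexp and -0.12 in the authors' values, where Irf3 with LPS was at -0.04. With an array left out, the sign changed within the ranges for Irf5 with LPS in WT (-0.2 to 0.28), Irf8 with IFNβ in WT (-0.18 to 0.27), Irf4 and Irf8 in untreated cells (-0.6 to 0.17 and -0.37 to 0.01), Irf3 with LPS in Ifnar1-/- cells (-0.01 to 0.3) and the IFNβ difference of Irf8 (-0.42 to 0.04). With IFNβ in Ifnar1-/- cells they were -0.21 to 0.31 for Irf1, -0.13 to 0.18 for Irf3, -0.49 to 0.28 for Irf4, -0.09 to 0.16 for Irf5 and -0.45 to 0.24 for Irf7. The cause was not tested.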

Other observations

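The dim second probe of Irf1, of transcript variant 3, rose by 4.81 log2 with LPS+zVAD in WT (SE 0.84, adjusted p = 8.55e-05 in limma) and by 2.28 in Ifnar1-/- cells (adjusted p = 0.0486), where the brighter Irf1 probe rose by 2.19 and 2.18. The difference between the genotypes on the second probe, -2.53, was not called (SE 1.18, adjusted p = 0.164). With the mean of both probes in place of the brighter one, Irf1 in untreated cells differed by -0.65 (adjusted p = 0.607).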
